A study of Mus musculus with 12 samples.

Results

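The data concern 10 genes that release calcium from, or return it to, the sarcoplasmic reticulum (SR) of heart muscle cells, or cardiomyocytes (CMs), out of 23337 genes counted. They were chosen by name for what their proteins do: Atp2a2, Pln, Sln, Ryr2, Trdn, Asph, Casq2, Hrc, Sri and Slc8a1. RNA-seq was done on 12 samples of sorted mouse CMs, 3 in each of 4 groups. Knockout (KO) mice were Srf-flox/flox, with both copies of Srf, the gene of the transcription factor SRF, flanked by loxP sites. Control (CTRL) mice were Srf-flox/+ and so kept a copy that Cre cannot remove. Mice of all 4 groups carried a Cre-inducible fluorescent reporter (Cas9GFP, tdTomato or mTmG) and had received AAV9-cTNT-Cre, an adeno-associated virus that expresses Cre from the cardiac troponin T promoter, at a dose low enough to leave most CMs untouched. Neonatal mice received the virus on postnatal day (P) 1 and gave CMs on P14, whereas adult mice received it on P60 and gave CMs on P90. Mice were of mixed genetic background. Cells were dissociated by collagenase perfusion, the apex of the heart was taken, and reporter-positive CMs were sorted.

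With each heartbeat, a small calcium current through the surface membrane opens the ryanodine receptor Ryr2, and calcium stored in the SR flows into the cytosol and starts contraction. The muscle relaxes when the pump SERCA2, encoded by Atp2a2, returns calcium to the SR and the exchanger encoded by Slc8a1 carries the remainder out of the cell. Phospholamban (Pln) and sarcolipin (Sln) are small membrane proteins that bind the pump and slow it, and calsequestrin (Casq2), triadin (Trdn), junctin (from Asph) and the histidine-rich calcium-binding protein (Hrc) store calcium beside the release channel or tie the store to it.

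Neonatal KO CMs had less Atp2a2 RNA than CTRL CMs, a call that did not hold when any 1 sample was left out. Adult KO CMs had less Slc8a1 RNA, a call that was lost in a fit that removes a trend with exon length. In each model the other 9 genes did not pass the main test, by edgeR. The fit that removes the length trend also called Ryr2 and Slc8a1 lower in neonatal KO, where it called 9.76% of all genes. A second method, DESeq2, also called Slc8a1 in neonatal and Ryr2 in adult KO, where it called 14% and 2.87% of all genes. Ryr2 was lower in every adult KO sample than in every adult CTRL sample, but its adjusted p-value missed the threshold in the main test. In the fit that removes the length trend its log2 fold change went from -0.68 to -0.30. Atp2a2, Hrc and Sln were called higher in CTRL CMs at P90 than at P14, where 29.3% of all genes tested were called in either direction. The call of Hrc held in 2 of the 6 fits that left a sample out. None of the 10 genes passed the main test of a difference in KO effect between the models.

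SRF binds a DNA motif of 10 bases named the CArG box, so the promoters of the 10 genes were searched for it, over 250 bases before and 50 bases after the start of transcription (RefSeq, GRCm38.p6). Promoters were at hand for 6 of the genes, namely Casq2, Hrc, Pln, Ryr2, Slc8a1 and Sri, and not for Atp2a2, Sln, Trdn and Asph. The motif reads the same on both strands. An exact CArG box was in 0 of the 6 promoters, and in 1.63% of the 32851 mouse promoters in the set. With 1 mismatch allowed, the motif was in the promoters of Slc8a1 and Casq2, and in 21.1% of all promoters. The 250 bases upstream of these 2 genes are printed because they alone held a match, and Slc8a1 was the gene that passed the test in adult KO. Capitals mark the inexact match, which begins 98 bases before the start of Slc8a1. In Casq2 a pair of overlapping matches begins 43 and 42 bases before the start. The Slc8a1 stretch is chr17:81738388-81738637 on the minus strand and the Casq2 stretch is chr3:102086165-102086414 on the plus strand, both written 5′ to 3′.
Slc8a1: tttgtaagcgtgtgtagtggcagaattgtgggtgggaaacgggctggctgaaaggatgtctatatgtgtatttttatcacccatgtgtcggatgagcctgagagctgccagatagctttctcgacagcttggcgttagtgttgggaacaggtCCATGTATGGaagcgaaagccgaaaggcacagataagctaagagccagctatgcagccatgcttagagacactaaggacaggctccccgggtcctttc
Casq2: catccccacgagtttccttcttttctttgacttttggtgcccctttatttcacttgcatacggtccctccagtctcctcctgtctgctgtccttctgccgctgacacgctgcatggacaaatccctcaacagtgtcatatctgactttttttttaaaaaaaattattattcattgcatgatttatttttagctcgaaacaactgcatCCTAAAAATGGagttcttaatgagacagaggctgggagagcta

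Total counts were between 9740389 and 23103460 per sample, and 3 counts, taken as the limit of detection, corresponded to 0.140 to 0.317 CPM (counts over the TMM-scaled library size). Reads without molecular identifiers are not independent molecules, so this limit covers counting error only. Srf was 64.3, 57.0 and 49.6 CPM in P14 CTRL and 32.1, 27.8 and 9.68 CPM in P14 KO. Adult values were 71.8, 57.5 and 80.4 CPM in CTRL and 33.2, 29.1 and 27.9 CPM in KO. KO samples were below CTRL samples at both ages, with log2 fold changes of -1.30 ± 0.36 (SE, adjusted p = 0.0628 by edgeR's quasi-likelihood test) and -1.23 ± 0.13 (adjusted p = 0.00347). CM marker genes (8 listed) summed to at least 73745 CPM in every sample, and leukocyte and erythroid markers to at most 12.8 and 2.41 CPM. Other lists summed to more, with highest values of 353 CPM for fibroblast and 452 CPM for endothelial markers. Smooth muscle and pericyte markers reached 1414 CPM and atrial CM markers 1602 CPM. At least 100 counts over 4 Y-linked genes were found in 3 samples (1 each of P14 CTRL, P14 KO and P90 CTRL), and the other samples had 0 to 2. Nothing in the labels says which samples share a litter, so p-values measure the spread between these samples. In bulk RNA, fewer cells of a type and less RNA per cell cannot be told apart.

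Levels of different genes were compared as RPKM (CPM per kilobase of exon). In P14 CTRL the order was Atp2a2 at 3898 ± 198 RPKM (SD, n = 3), Pln at 2387 ± 611, Casq2 at 797 ± 35.1, Hrc at 109 ± 17.7, Trdn at 94.7 ± 14.8, Ryr2 at 93.1 ± 14.4, Asph at 37.8 ± 10.3, Sri at 18.0 ± 2.19, Slc8a1 at 12.8 ± 0.829 and Sln at 0.635 ± 0.572. Hrc, Trdn and Ryr2 overlapped each other, whereas the pump, phospholamban and calsequestrin were each separate from the gene below them. In P90 CTRL the first 4 places were unchanged, at 5871 ± 614 RPKM for Atp2a2, 2799 ± 315 for Pln, 769 ± 66.1 for Casq2 and 152 ± 22.7 for Hrc. Sln, at 27.2 ± 16.0 RPKM with a range of 14.5 to 45.1, then overlapped Asph and Sri. Counts of Atp2a2 made up 1.56% to 3.34% of all counts in a sample, and the 10 genes together made up 2.56% to 4.34%, so the pump RNA was between 60.8% and 76.8% of what was counted for the group.

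**Figure D1:**
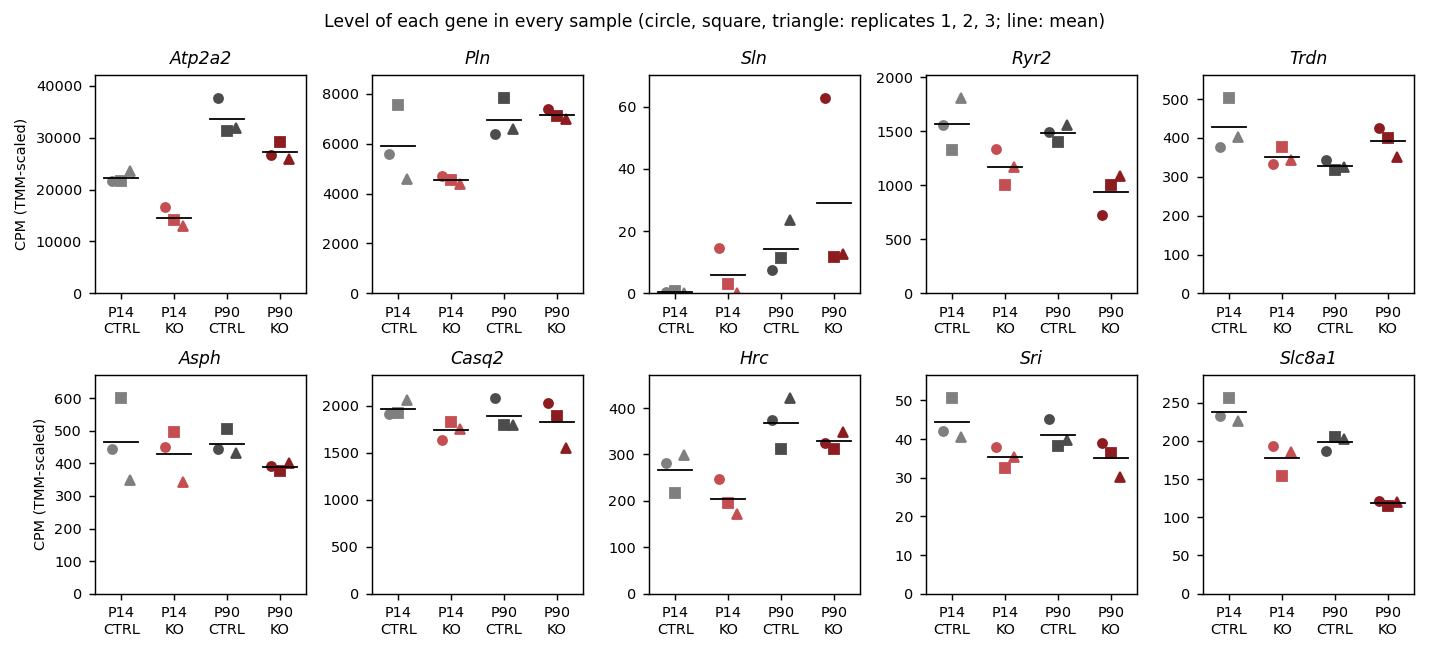
Each panel shows 1 gene, with CPM (linear axis from 0) in the 12 samples by age and genotype. At P14, Atp2a2, Casq2, Sri and Slc8a1 show KO samples below all CTRL samples. At P90, Atp2a2, Ryr2, Asph and Slc8a1 do so, and Trdn shows KO samples above all CTRL samples. The share of all genes without overlap was not counted, so such separation is a description only, here and in the text. Sln is spread widely within groups, with 1 P90 KO sample at 62.8 CPM.

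Atp2a2 encodes the SR calcium pump and lies on chromosome 5 (122453513 to 122502225, mm10, minus strand). The counts do not separate its isoforms. In P14 CTRL it was 21623, 21701 and 23629 CPM, and in P14 KO it was 16627, 14047 and 13038 CPM. The KO samples were all below the CTRL samples, and the KO mean was 14571 ± 1851 CPM (SD, n = 3) against 22318 ± 1136 CPM. That is a log2 fold change of -0.62 ± 0.14 (SE), or 65.2% of CTRL, at an adjusted p of 0.0361 by edgeR. It was the only one of the 10 genes that passed in neonatal CMs, where 8.59% of the 12546 genes tested passed. The adjusted p-value rose above 0.05 when any 1 of the 6 samples was left out, to between 0.0559 and 0.184, with log2 fold changes of -0.71 to -0.53. DESeq2 gave -0.62 at an adjusted p of 0.000226. The 8 CM markers summed to 95485 to 106214 CPM in P14 CTRL and 73745 to 77347 CPM in P14 KO, with 1 of the 8 called lower. Smooth muscle and pericyte markers (7 listed) summed to 958 to 1414 CPM in P14 CTRL and 379 to 593 CPM in P14 KO, with 1 called lower and 1 higher. Of these 7, 4 had a negative log2 fold change, and the median was -0.12. The part of either set of markers in the Atp2a2 values was not tested.

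At P90, Atp2a2 was 37654, 31269 and 31916 CPM in CTRL and 26678, 29106 and 25818 CPM in KO. Again no KO sample reached the lowest CTRL sample. Its log2 fold change of -0.32 ± 0.09 (SE) came at an adjusted p of 0.148 by edgeR, so the adult difference did not pass. Subtracting the adult from the neonatal KO effect gave -0.29 ± 0.16 (SE) on the log2 scale, which did not pass the interaction test (adjusted p = 0.357 by edgeR). The 5 genes whose log2 CPM followed Atp2a2 most closely over the 12 samples, among 9466 genes with a mean of at least 5 CPM, were Raver2 (Pearson r = 0.986), Mfn1 (0.984), Slc40a1 (0.982), Mapk14 (0.982) and Fsd2 (0.982). The samples fall into a cluster per age, so these values describe the likeness over both ages and carry no p-value.

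Pln encodes phospholamban, which inhibits the pump until it is phosphorylated. It lies on chromosome 10 (53337686 to 53345999, plus strand). In P14 CTRL it was 5605, 7567 and 4586 CPM, and in P14 KO it was 4690, 4554 and 4392 CPM. The groups overlapped, and the CTRL samples spread more widely than the KO samples. KO differed from CTRL by -0.38 ± 0.19 on the log2 scale (SE, adjusted p = 0.241 by edgeR). In adult CMs, Pln was 6382, 7834 and 6607.9 CPM in CTRL and 7390, 7096 and 6977 CPM in KO, and the log2 fold change was 0.03 ± 0.10 (SE, adjusted p = 0.926 by edgeR).

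The amount of inhibitor per pump was followed as the ratio of counts per kilobase within a sample, which does not depend on library scaling. Pln was 59.8%, 80.5% and 44.8% of Atp2a2 in P14 CTRL and 65.1%, 74.8% and 77.8% in P14 KO. Adult shares were 39.1%, 57.8% and 47.8% in CTRL and 63.9%, 56.3% and 62.4% in KO. KO and CTRL samples overlapped at both ages. The log2 ratio was 0.27 higher in neonatal KO (p = 0.4, exact two-sided permutation test, adjusted p = 0.457 over 8 ratio tests) and 0.35 higher in adult KO (p = 0.2, exact test, adjusted p = 0.457). With 3 samples against 3 the exact permutation test cannot go below p = 0.1, so none of the 8 ratio tests could pass.

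**Figure D2:**
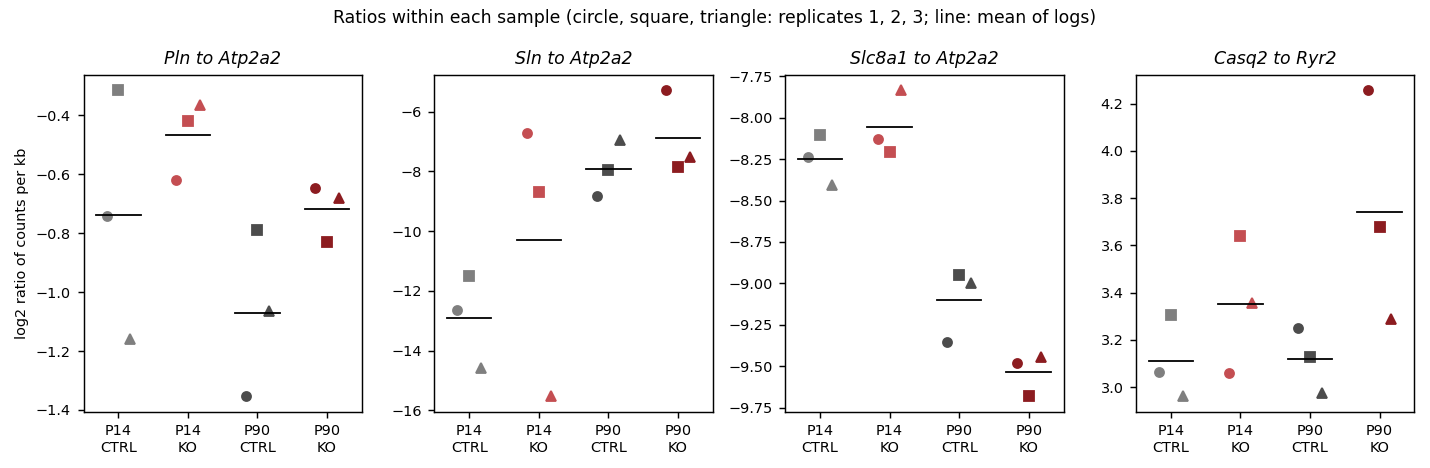
The log2 ratio of counts per kilobase is shown in each sample for 4 pairs of genes, by age and genotype, with the mean as a line. In adult CMs, Slc8a1 to Atp2a2 was lower and Casq2 to Ryr2 was higher in all KO samples than in all CTRL samples, while the other ratios overlapped.

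Sln encodes sarcolipin, a pump inhibitor known from atrial and skeletal muscle, and lies on chromosome 9 (53850251 to 53853849, plus strand). In P14 CTRL it had 6, 13 and 1 counts, or 0.283, 0.648 and 0.0587 CPM, the last of them under the limit of detection. In P14 KO there were 272, 63 and 0 counts, or 14.5, 3.04 and 0 CPM. One KO sample was thus below every CTRL sample and the other KO samples were above them. Only 1 CTRL sample and the 2 higher KO samples had 10 counts or more, and with these Sln passed the filter on low counts. The fitted log2 fold change was 4.08 ± 1.46 (SE, adjusted p = 0.124 by edgeR), and it was 2.16 without P14 KO replicate 1 and 4.68 (adjusted p = 0.0497) without P14 KO replicate 3.

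In adult CMs, Sln was 7.54, 11.4 and 23.5 CPM in CTRL and 62.8, 11.5 and 12.8 CPM in KO. The groups overlapped, and P90 KO replicate 1 stood alone at the top. Here the log2 fold change was 1.03 ± 0.60 (SE, adjusted p = 0.425 by edgeR), and without that replicate it turned to -0.22 (adjusted p = 0.855). Sln reached 0.959% of Atp2a2 per kilobase in P14 KO replicate 1 and 2.59% in P90 KO replicate 1, its highest share at each age. The log2 ratio of Sln to Atp2a2 was 2.60 higher in neonatal KO (p = 0.5, exact permutation test) and 1.03 higher in adult KO (p = 0.4, exact permutation test), with adjusted p-values of 0.5 and 0.457. The neonatal difference was 0.80 without P14 KO replicate 1 and 5.21 without P14 KO replicate 3. The adult difference was 0.23 without P90 KO replicate 1 and 0.58 without P90 CTRL replicate 1.

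Some markers of atrial CMs moved with Sln from sample to sample, and others did not. Myl7, the atrial light chain 2 of myosin, was 24.1, 9.04 and 0.0502 CPM in P14 KO and 1.42, 1.30 and 0.0587 CPM in P14 CTRL. At P90, Myl7 was 64.7, 15.9 and 17.2 CPM in KO and 14.6, 23.99 and 44.9 CPM in CTRL. The KO samples with the most Sln were thus those with the most Myl7. Of the 10 atrial markers listed, 6 were highest at P14 in the sample that was highest for Sln, 8 at P90, and 5 (Myl7, Myl4, Mybphl, Dkk3 and Pam) at both ages. Nppa, also a stress gene of the ventricle, was highest at P14 in KO replicate 2, at 1171 CPM against 712 CPM in replicate 1, and so was Stard10. Pam was 276 CPM in P14 KO replicate 3, where Sln was 0, and Gpr22 was 57.0 to 68.3 CPM in P14 KO and 65.6 to 92.9 CPM in P14 CTRL. Over all 12 samples Myl7 was also the gene most like Sln (Pearson r = 0.982 of log2 CPM), followed by Adprhl1 (0.943), Dkk3 (0.932), Tmem66 (0.893) and Gstm2 (0.890). Of the 10, 9 were tested in each KO comparison, and 2 were higher in neonatal KO and 0 were called in adult KO. They summed to 265 to 771 CPM in P14 CTRL and 647 to 1602 CPM in P14 KO, highest in replicate 2, and to 481 to 580 and 448 to 978 CPM in P90 CTRL and KO. None of the 10 markers was at 0 throughout a group. The part of atrial cells in the Sln values was not tested.

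**Figure D3:**
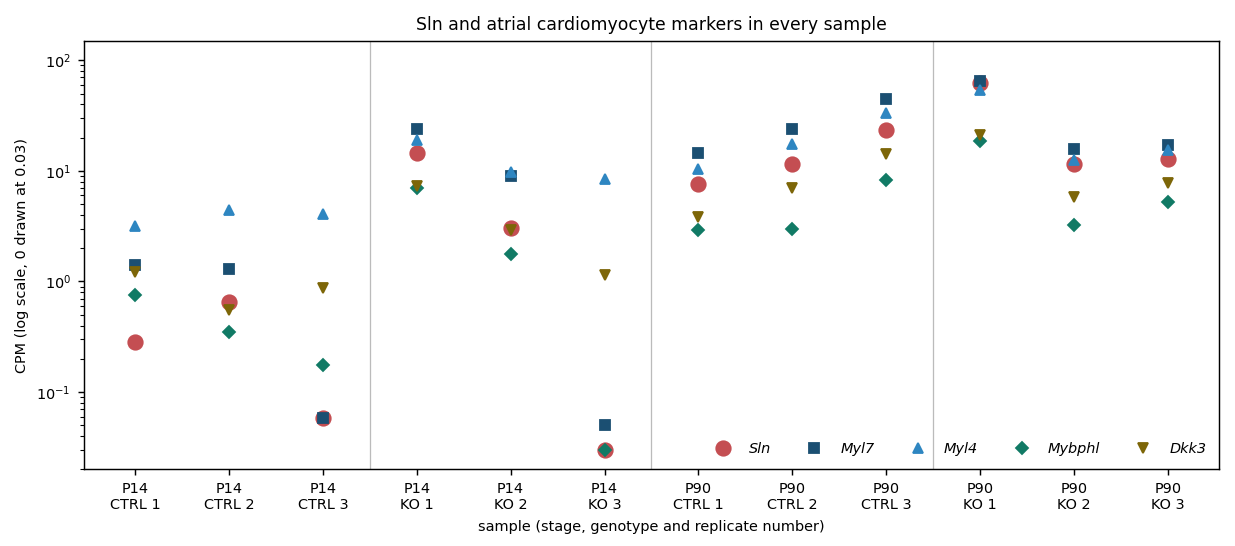
Levels of Sln and of the atrial markers Myl7, Myl4, Mybphl and Dkk3 are shown in every sample in CPM on a log axis, with 0 drawn at 0.03. P14 KO replicate 1 and P90 KO replicate 1 are highest for Sln within their age, at 14.5 and 62.8 CPM, and highest for the 4 markers as well. These 4 are among the 5 of 10 listed atrial markers that were highest with Sln at both ages. Their likeness to Sln thus follows from the choice. Of those not drawn, Nr2f2 and Gpr22 were highest in CTRL samples at P14, and Bmp10 in a CTRL sample at P90.

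Ryr2 encodes the SR calcium release channel and lies on chromosome 13 (11553103 to 12106945, minus strand), with exons that sum to 16813 bp. At P90 it was 1492, 1405 and 1564 CPM in CTRL and 724, 1006 and 1086 CPM in KO. The KO samples lay below the CTRL samples, and P90 KO replicate 1 was lowest. KO held 62.6% of CTRL, a log2 fold change of -0.68 ± 0.14 (SE) at an adjusted p of 0.0627 by edgeR. DESeq2 called it, at an adjusted p of 0.000512, and edgeR called it without P90 KO replicate 3 (adjusted p = 0.0418). Leaving out any other sample gave adjusted p-values of 0.0643 to 0.232 by edgeR. With the trend of exon length taken out, described further on, the log2 fold change was -0.30 (adjusted p = 0.125 by edgeR). Over the 14 fits made, it was called in 4. At P14, Ryr2 was 1557, 1327 and 1810 CPM in CTRL and 1339, 1002 and 1170 CPM in KO. These groups overlapped by 1 sample, and the log2 fold change was -0.42 ± 0.16 (SE, adjusted p = 0.146 by edgeR).

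Triadin and junctin are membrane proteins that hold calsequestrin close to the release channel. Trdn lies on chromosome 10 (33083483 to 33476709, plus strand). In adult CMs it was 344, 318 and 324 CPM in CTRL and 425, 401 and 351 CPM in KO, so that all KO samples were above all CTRL samples. This gave a log2 fold change of 0.24 ± 0.09 (SE, adjusted p = 0.2496 by edgeR). In neonatal CMs it had the other sign, at -0.29 ± 0.14 (SE, adjusted p = 0.233), from 376, 503 and 403 CPM in CTRL and 333, 378 and 344 CPM in KO, which overlapped. The difference between the KO effects of the neonatal and adult models was -0.52 ± 0.16 on the log2 scale (SE, adjusted p = 0.117 by edgeR's interaction test).

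Asph lies on chromosome 4 (9449085 to 9669162, minus strand), and its count includes junctin, junctate and aspartate hydroxylase, which share exons. Its exons also overlap those of Clvs1, so its count is uncertain. In neonatal CMs, Asph was 444, 600 and 350 CPM in CTRL and 450, 498 and 342 CPM in KO, with a log2 fold change of -0.12 ± 0.21 (SE, adjusted p = 0.794 by edgeR). In adult CMs it was 443, 505 and 431 CPM in CTRL and 392, 378 and 401 CPM in KO. The adult groups did not overlap, but the log2 fold change of -0.25 ± 0.10 (SE) had an adjusted p-value of 0.251 by edgeR.

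Casq2 encodes the main calcium buffer of the SR lumen and lies on chromosome 3 (102086510 to 102146512, plus strand). It was 1906, 1917 and 2060 CPM in P14 CTRL and 1632, 1826 and 1751 CPM in P14 KO. All KO samples were below the CTRL samples, yet the log2 fold change was small, at -0.18 ± 0.11 (SE, adjusted p = 0.357 by edgeR). In adult CMs the values were 2077, 1796 and 1796 CPM in CTRL and 2025, 1886 and 1552 CPM in KO, with a log2 fold change of -0.07 ± 0.11 (SE, adjusted p = 0.801). Per kilobase, Casq2 exceeded Ryr2 by 9.52, 8.74 and 7.85 times in P90 CTRL and by 19.1, 12.8 and 9.77 times in P90 KO. The log2 ratio was 0.62 higher in adult KO and the groups did not overlap (p = 0.1, exact permutation test, the smallest it can give, adjusted p = 0.4). It fell to 0.37 without P90 KO replicate 1. Ryr2 is much longer than Casq2, and with each sample's length trend taken out, an alternative chosen after seeing the data, the ratios were 8.38, 8.65 and 7.82 in P90 CTRL and 10.7, 9.06 and 8.67 in P90 KO. The adult log2 difference was then 0.19, still without overlap. It was 0.24 higher in neonatal KO, where the groups overlapped (p = 0.3, exact permutation test, adjusted p = 0.457), and 0.39 without overlap once the length trend was taken out.

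Hrc, on chromosome 7 (45335269 to 45338972, plus strand), encodes a luminal calcium-binding protein that contacts both triadin and the pump. It was 281, 217 and 299 CPM in P14 CTRL and 248, 195 and 171 CPM in P14 KO, a log2 fold change of -0.38 ± 0.17 (SE, adjusted p = 0.207 by edgeR). At P90 it was 374, 311 and 421 CPM in CTRL and 324, 311 and 349 CPM in KO, a log2 fold change of -0.18 ± 0.11 (SE, adjusted p = 0.469). KO and CTRL overlapped at both ages. Sri encodes sorcin, a cytosolic calcium sensor that binds the release channel, and lies on chromosome 5 (8046080 to 8069245, plus strand). It was 42.2, 50.6 and 40.5 CPM in P14 CTRL and 37.9, 32.6 and 35.5 CPM in P14 KO, without overlap, and the log2 fold change was -0.33 ± 0.13 (SE, adjusted p = 0.153 by edgeR). Adult Sri was 45.2, 38.3 and 39.7 CPM in CTRL and 39.04, 36.5 and 30.2 CPM in KO, with overlap, and the log2 fold change was -0.24 ± 0.12 (SE, adjusted p = 0.347).

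Slc8a1 encodes the sodium-calcium exchanger NCX1 of the surface membrane and lies on chromosome 17 (81373105 to 81738377, minus strand), with exons that sum to 18599 bp. Its promoter is printed above and holds an inexact CArG box, as do that of Casq2 and 21.1% of all promoters. At P90 it was 187, 205 and 203 CPM in CTRL and 121, 115 and 120 CPM in KO. The KO samples lay close together and all below the CTRL samples. KO held 59.4% of CTRL, a log2 fold change of -0.75 ± 0.09 (SE) at an adjusted p of 0.00755 by edgeR. It was the only one of the 10 genes called in adult CMs, where 0.39% of the 11808 genes tested were called. Leaving out P90 KO replicate 2 raised the adjusted p-value to 0.0695, with a log2 fold change of -0.72, and leaving out any of the other 5 samples kept the call. With the trend of exon length taken out, described further on, the log2 fold change was -0.30 and the call was lost (adjusted p = 0.333 by edgeR). Smooth muscle and pericyte markers summed to 271 to 423 CPM in P90 CTRL and 198 to 212 CPM in P90 KO, with 0 of the 7 called. The lower sum does not stand for the whole list. Only 2 of the 7 had a negative log2 fold change in adult KO, and the median was 0.19. The part of these markers in the Slc8a1 values was not tested.

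At P14, Slc8a1 was 233, 256 and 226 CPM in CTRL and 193, 154 and 186 CPM in KO. These groups did not overlap either. The log2 fold change was -0.43 ± 0.13 (SE, adjusted p = 0.0743 by edgeR), and DESeq2 called it (adjusted p = 0.0272). The KO effects of the 2 models differed by 0.33 ± 0.15 on the log2 scale (SE, neonatal minus adult, adjusted p = 0.243 by edgeR's interaction test). Per kilobase, Slc8a1 was 0.153%, 0.202% and 0.196% of Atp2a2 in P90 CTRL and 0.140%, 0.122% and 0.144% in P90 KO. KO minus CTRL of the log2 ratio was -0.43 in adult CMs, a ratio of 0.741 times CTRL, without overlap (p = 0.1, exact permutation test, adjusted p = 0.4). With the length trend taken out it was -0.13 and the groups overlapped (p = 0.6, exact permutation test). In neonatal KO it was 0.19 higher, with overlap (p = 0.3, exact permutation test, adjusted p = 0.457).

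**Figure D4:**
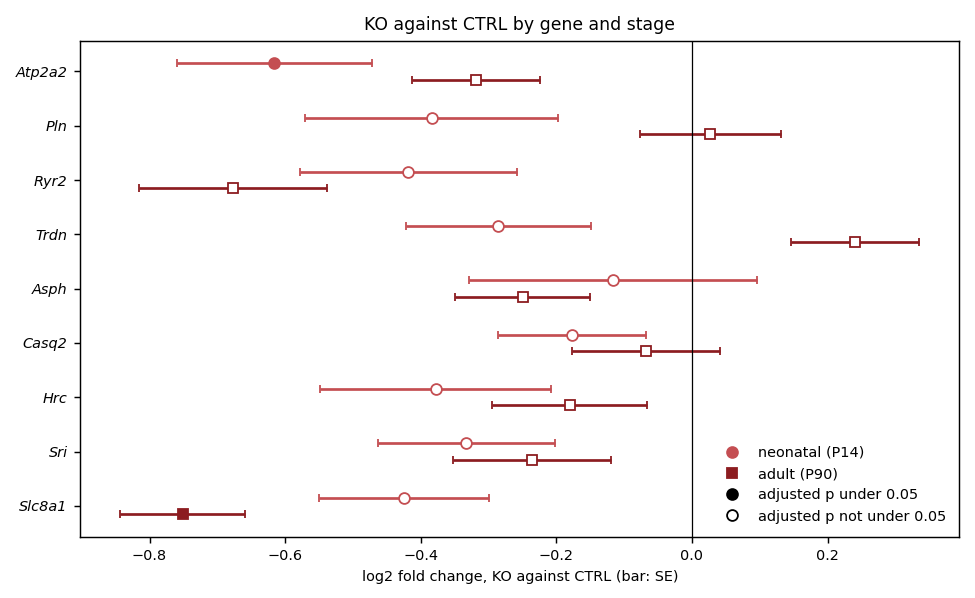
The log2 fold change of KO against CTRL is shown for 9 genes with its SE, neonatal as circles and adult as squares, filled where the adjusted p-value was under 0.05. Sln, at 4.08 ± 1.46 and 1.03 ± 0.60, is off this scale and not drawn. Only neonatal Atp2a2 (-0.62) and adult Slc8a1 (-0.75) are filled, and Trdn is the one gene to the right of 0 by more than its SE, in adult CMs.

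Over the 10 genes, 9 had a negative log2 fold change in neonatal KO and 7 in adult KO. The median was -0.36 in neonatal KO, beside 0.0011 over all genes tested, and -0.21 in adult KO, beside 0.0057. Of the 8 CM markers, 6 were negative in neonatal KO (median -0.23) and 2 in adult KO (median 0.26). Of the other calcium handling genes described further on, 40 of 68 were negative in neonatal KO (median -0.10) and 37 of 69 in adult KO (median -0.03). DESeq2 called 2 of the 10 in neonatal CMs, Atp2a2 and Slc8a1, where it called 14% of all genes tested. It called 2 in adult CMs, Slc8a1 and Ryr2, where it called 2.87%. In the test of the difference between the models, edgeR called 0 of the 10 genes and 1.78% of all genes. At an unadjusted p under 0.05 it found 2, Trdn and Slc8a1, and DESeq2 called 1, Trdn (adjusted p = 0.0270), among 8.78% of all genes.

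The adult log2 fold changes of all genes fell with exon length, and the members that fell most are the longest. The median was 0.13 for the 3345 tested genes shorter than 2000 bp and -0.44 for the 29 genes of at least 16000 bp, Ryr2 and Slc8a1 among them. Both lay below the quartile range of those 29 genes, which was -0.50 to -0.27. In neonatal CMs the order was the opposite, with medians of -0.10 and 0.088. A fit that took each sample's length trend out gave adult log2 fold changes of -0.30 for both Slc8a1 (adjusted p = 0.333 by edgeR) and Ryr2 (adjusted p = 0.125), and 0 of the 10 genes were called, beside 0.711% of all genes. The sample with the steepest adult trend was P90 KO replicate 1, in which the fitted trend at the length of Slc8a1 was -0.82 on the log2 scale. Without that sample, and with no length trend taken out, Slc8a1 was called at -0.76 (adjusted p = 0.0196 by edgeR). A trend remained in that fit. At the length of Slc8a1 it was -0.50 and -0.19 in P90 KO replicates 2 and 3, and -0.19, -0.057 and -0.034 in P90 CTRL. In neonatal CMs the fit with the length trend taken out called 3 of the 10 genes, beside 9.76% of all genes. These were Atp2a2 at -0.69 (adjusted p = 0.0167), Ryr2 at -0.58 (adjusted p = 0.0225) and Slc8a1 at -0.61 (adjusted p = 0.0319). The part of exon length in the adult values of Slc8a1 and Ryr2 was not tested beyond this fit. Stress genes of cell isolation (10 listed) also summed to more in P90 KO, at 1768 to 2851 CPM, than in P90 CTRL, at 842 to 1432 CPM, and their part in the adult values was not tested.

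**Figure D5:**
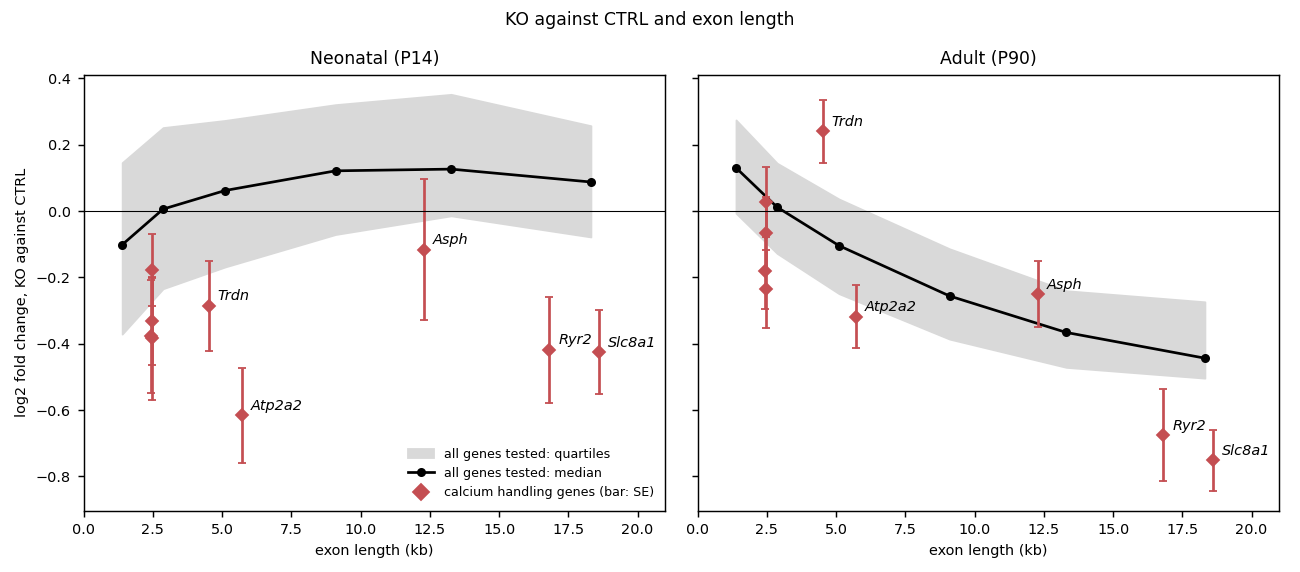
The log2 fold change of KO against CTRL is plotted against exon length in kb, with the median and quartiles of all genes tested in 6 length classes in black and grey and 9 of the calcium handling genes in red with their SE. In adult CMs the black line falls from 0.13 to -0.44, with Slc8a1 at -0.75 and Ryr2 at -0.68 below it, and in neonatal CMs Atp2a2, Ryr2 and Slc8a1 lie under the line, which rises with length from -0.10 to 0.13 before its last class.

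CTRL CMs of the 2 ages were compared to place the KO differences beside those with age. The ages came from separate tables, and age cannot be told apart from how the mice and libraries of each were treated. Of the 10 genes, 3 were called, all higher at P90, where 29.3% of all genes tested were called in either direction. Atp2a2 rose by 0.61 ± 0.11 on the log2 scale, from 22318 ± 1136 CPM to 33613 ± 3515 CPM (SD, n = 3, adjusted p = 0.00363 by edgeR). Sln rose from 0.330 ± 0.298 to 14.1 ± 8.30 CPM, a fitted log2 fold change of 5.36 ± 0.63 (SE, adjusted p = 0.000545), and Myl7 rose by 4.87 ± 0.64 (SE, adjusted p = 0.000965). Sln had 6, 13 and 1 counts at P14 and 145, 108 and 299 at P90, so it entered this test through the P90 samples and the size of its change is uncertain. Hrc rose from 266 ± 43.05 to 369 ± 55.2 CPM, a log2 fold change of 0.49 ± 0.16 (SE, adjusted p = 0.0446). The call of Hrc was lost without P14 CTRL replicate 1 or 2 and without P90 CTRL replicate 1 or 3, with adjusted p-values of 0.0641 to 0.155. Trdn went from 427 ± 66.7 to 329 ± 13.3 CPM, a log2 fold change of -0.36 ± 0.13 (SE), and did not pass (adjusted p = 0.0607). Slc8a1 was -0.25 ± 0.11 (adjusted p = 0.115), Pln was 0.25 ± 0.18 (adjusted p = 0.3201), and Ryr2, Casq2, Asph and Sri were between -0.09 and 0.0039. Some markers of other cells were also called in this comparison. Of the fibroblast markers 5 of 7 tested fell (their sum reached 328 CPM at P14 and 71.4 CPM at P90), of the endothelial markers 5 of 8 and of the smooth muscle and pericyte markers 2 of 7, while 4 of 10 isolation stress genes rose and 1 fell. The part of these in the values of Atp2a2, Sln and Hrc was not tested.

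Other genes of calcium handling were taken from 6 lists of 77 genes, of which 76 were in the tables. In neonatal KO, 68 could be tested, and 2 fell, 2 rose and the others did not pass, beside 8.59% called over all genes. Akap7, an anchor that brings protein kinase A to phospholamban, fell from 30.1 ± 7.56 to 17.4 ± 0.870 CPM (log2 fold change -0.80 ± 0.18, adjusted p = 0.0342 by edgeR). Prkar2a, a regulatory subunit of that kinase, fell from 146 ± 5.65 to 98.8 ± 19.1 CPM (-0.56 ± 0.14, adjusted p = 0.04997). Camk2b, a subunit of the calmodulin-dependent kinase that phosphorylates phospholamban and the release channel, rose from 16.4 ± 1.99 to 41.0 ± 12.0 CPM (1.32 ± 0.20, adjusted p = 0.0128). Sypl2, a protein of the junction between surface membrane and SR, rose from 0.309 ± 0.0354 to 1.32 ± 0.404 CPM (2.07 ± 0.42, adjusted p = 0.0247). It had only 6, 7 and 5 counts in CTRL and 16, 32 and 31 in KO, so it entered the test through the KO samples and the size of its change is uncertain. Apart from Sypl2 these belong to the list of 21 kinases, phosphatases and their partners. The lists of luminal proteins (12), other release and entry channels (11), other pumps and exchangers (9) and mitochondrial uptake (9) had 0 calls in either direction.

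In adult KO, 69 of the listed genes could be tested, and 1 passed, beside 0.39% of all genes. Ppp1r3a, a subunit that brings protein phosphatase 1 to glycogen and SR, fell from 271 ± 3.40 to 194 ± 8.41 CPM (log2 fold change -0.50 ± 0.09, adjusted p = 0.0454 by edgeR). Between P14 and P90 CTRL, 21 of 69 listed genes rose and 9 fell, beside 14.5% of all genes that rose and 14.9% that fell. The 5 with the smallest p-values were Tmem38b, which encodes a potassium channel of the SR, at 1.29 ± 0.16 on the log2 scale (adjusted p = 0.000842), the luminal calcium-binding protein Rcn2 at 0.70 ± 0.11 (adjusted p = 0.00241), the phosphatase catalytic subunit Ppp1ca at -0.59 ± 0.10 (adjusted p = 0.00271), the chaperone Hspa5 at 0.93 ± 0.15 (adjusted p = 0.00279) and the calcium sensor S100a1 at 1.10 ± 0.19 (adjusted p = 0.00341). Of the 12 luminal proteins, 6 rose and 1 fell, with a median of 0.50.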

How the data were processed

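RNA of 12 samples of sorted CMs was counted. The study's methods name SMART-Seq v4 for cDNA, Nextera XT for libraries and single-end sequencing. Per the submitters' processing notes, CASAVA 1.8, STAR 2.5.3a and featureCounts of Subread 1.5.2 were used with build mm10. The authors deposited raw counts per gene with exon coordinates and summed exon length, in a table per age. The strand setting and the handling of multi-mapped reads are not given in the sources used here.

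Samples were grouped by their titles. Counts were analysed with edgeR 4.0.16 in R 4.3.3: filterByExpr, TMM factors and the quasi-likelihood test at a Benjamini-Hochberg adjusted p under 0.05 over all genes. Each age was fitted on its 6 samples, the interaction on all 12 and CTRL P90 against P14 on the 6 CTRL samples. SE was derived from the fold change and F. Ratios used counts per kilobase with 0.5 added to each count. Alternatives were DESeq2 1.42.0, RLE factors, no filter, a replicate block, a length offset (loess, span 0.5), all 12 samples and leaving out each sample. A sex term from Y-linked counts was fitted in neonatal CMs only, so the part of sex in the adult values was not tested. Ratios with the length trend taken out were added after seeing the data. The tests were checked on simulated counts drawn with no length trend or pairing, and with a spread set by expression level alone. That check does not cover a length trend, pairing or a spread particular to a gene.

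The genes, lists and tests were chosen with earlier results of these data known. All 10 members and Srf are named, and of the listed calcium genes at most the 5 with the smallest p among those past the threshold in each comparison. Atrial markers are named beside Sln. For Atp2a2 and Sln the 5 most correlated genes are named.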

Additional observations from a re-analysis of the deposited data

Results flagged for a closer look

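By edgeR's interaction test, the effect of KO differed between the neonatal and adult models for 2 of 70 listed calcium genes tested. Over all genes, 1.78% were called, and 4 to 377 genes were called when a sample was left out. The median difference of all genes was -0.24 below 2000 bp of exon length and 0.54 at 16000 bp or more. The part of exon length in the 2 differences was not tested. Camk2b was 16.4 ± 1.99 and 41.0 ± 12.0 CPM (SD, n = 3) in P14 CTRL and KO, and 18.8 ± 3.999 and 15.4 ± 1.121 CPM in P90 CTRL and KO. The neonatal minus the adult effect was 1.63 ± 0.28 on the log2 scale (SE, adjusted p = 0.0210 by edgeR). Calm2, one of the calmodulin genes, was 107 ± 15.6 and 77.7 ± 9.496 CPM in P14 CTRL and KO, and 98.5 ± 4.44 and 126 ± 17.4 CPM in P90 CTRL and KO. Its difference was -0.79 ± 0.18 (SE, adjusted p = 0.0487 by edgeR), while neither effect passed by itself (adjusted p = 0.0849 neonatal, 0.171 adult).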

How the results depend on the processing

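For the 8 ratios, all 72 alternative values kept the direction, though not the size. Those with the replicate block could not change, because the mean of paired differences equals the difference in means. When a sample was left out, the log2 ratio of Pln to Atp2a2 differed by 0.060 (without P14 CTRL replicate 3) to 0.48 (without P14 CTRL replicate 2) in neonatal KO and by 0.21 (without P90 CTRL replicate 1) to 0.49 in adult KO, Slc8a1 to Atp2a2 by 0.079 (without P14 KO replicate 3) to 0.27 in neonatal KO and Casq2 to Ryr2 by 0.097 (without P14 KO replicate 2) to 0.39 (without P14 KO replicate 1) in neonatal KO. The number of the 10 genes called in neonatal KO was 1, and it became 2 with DESeq2, without a filter and with all 12 samples, 3 with the length offset and 4 with the length offset and replicate block. It was 0 to 1 when a sample was left out, and the 1 call, without P14 KO replicate 3, was Sln in place of Atp2a2. In adult KO the number was 1, and it became 2 with DESeq2, 3 without a filter and 0 with the length offset, with or without the block, and was 0 to 2 when a sample was left out. For the interaction, 0 became 1 with DESeq2 and 1 with the length offset and replicate block, in both cases Trdn. The cause of these changes was not tested.

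Deviations from the group mean had correlations of 0.0034 to 0.352 between same-numbered KO and CTRL samples of an age. Between differently numbered ones the correlations were -0.242 to 0.165. These values do not settle whether the numbers mark pairs, and the main fits used no pairing. With the replicate block, 1 of the 10 genes was called in neonatal KO (Sln at 3.68, adjusted p = 0.0448 by edgeR, while Atp2a2 was at 0.0592), 2 in adult KO (Slc8a1 and Ryr2), 0 in the interaction and 3 in CTRL. The block moved the calls over all genes from 1078 to 1529, from 46 to 655, from 228 to 687 and from 3607 to 3139.

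Some directions turned, all of them in genes that did not pass. With the length offset, the adult log2 fold change was -0.0022 for Pln and 0.080 for Asph (0.073 with the block). The interaction was -0.28 for Ryr2 and -0.31 for Slc8a1 (-0.28 and -0.27 with the block), and CTRL P90 against P14 was 0.23 for Ryr2 and 0.040 for Slc8a1 (0.23 and 0.056 with the block). When samples were left out, Asph was -0.29 to 0.12 in neonatal KO, and in adult KO Pln was -0.049 to 0.13, Sln -0.22 to 1.62 and Casq2 -0.15 to 0.024. In CTRL P90 against P14, Asph was -0.16 to 0.22, Ryr2 -0.17 to 0.068 and Casq2 -0.095 to 0.012.

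Over all genes, edgeR called 111 to 1004 in neonatal KO and 6 to 51 in adult KO when a sample was left out. Depth limited Sln most, with 0 to 13 counts in 4 of the 6 samples at P14.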
